A study of Mus musculus with 8 samples.

Results

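The Ifitm genes were followed across the leukocytes of the mouse brain in 8 droplet-based single-cell RNA sequencing libraries. The members were chosen by gene symbol and are Ifitm1, Ifitm2, Ifitm3 and Ifitm6, which are 4 of the 32285 genes in the feature tables. A transcript captured in a droplet is counted once by its unique molecular identifier (UMI), and 23091 genes had at least 1 UMI in a kept cell. The kept cells held 125704 UMIs of Ifitm1, 216397 of Ifitm2, 240522 of Ifitm3 and 249805 of Ifitm6. The other genes of the family were sparse, with 7649 UMIs of Ifitm10, 133 of Ifitm7 and 52 of Ifitm5, the member known from bone-forming cells.

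IFITM proteins are small membrane proteins that sit at the cell surface and in endosomes, where they hinder the fusion of enveloped viruses with the membrane of the host cell. Interferons act through receptors, JAK kinases and STAT factors, and the STAT complexes bind the interferon-stimulated response element (ISRE) or the gamma-activated site (GAS) in the promoters of their target genes. Ifitm3 is the best studied antiviral member and is also known to bind γ-secretase, the protease complex that releases amyloid-β. Ifitm6 is a mouse gene known from myeloid cells.

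The 4 genes lay within 63.1 kb of chromosome 7. In GENCODE vM21 on mm10, the build of the deposited counts, Ifitm2 was at chr7:140954837-140955987 on the minus strand, Ifitm1 at chr7:140967221-140969825 on the plus strand, Ifitm3 at chr7:141009586-141010770 and Ifitm6 at chr7:141015699-141017924, the latter both on the minus strand. All 4 are protein-coding. The longest run of bases shared by the transcripts of a pair of members was 69 for Ifitm2 and Ifitm3, 64 for Ifitm1 and Ifitm3 and 40 for Ifitm1 and Ifitm2, so a few reads of these 3 genes could have been assigned to either gene of a pair. Ifitm6 shared no run longer than 25 bases with another member.

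The promoters are shown because the members are known as interferon-induced genes and differed in the response elements that they carried. Each stretch was read 5′ to 3′ on the strand of the gene from RefSeq on GRCm38.p6 and holds 170 bases before and 30 bases after the RefSeq start. For each gene this start lies inside the GENCODE gene given above. For Ifitm1 and Ifitm6 the whole stretch lies inside it, so it is not the sequence before the outermost GENCODE end. For Ifitm2 and Ifitm3 the stretch reaches across that end. The stretches are chr7:140967906-140968105 on the plus strand for Ifitm1, and chr7:140955932-140956131 for Ifitm2, chr7:141010715-141010914 for Ifitm3 and chr7:141016863-141017062 for Ifitm6 on the minus strand. Capitals mark the core of the ISRE, written GAAANNGAAA, searched on both strands.
Ifitm1: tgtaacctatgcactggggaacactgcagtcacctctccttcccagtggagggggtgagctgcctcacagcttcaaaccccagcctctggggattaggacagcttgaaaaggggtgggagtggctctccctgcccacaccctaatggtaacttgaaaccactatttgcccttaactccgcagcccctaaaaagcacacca
Ifitm2: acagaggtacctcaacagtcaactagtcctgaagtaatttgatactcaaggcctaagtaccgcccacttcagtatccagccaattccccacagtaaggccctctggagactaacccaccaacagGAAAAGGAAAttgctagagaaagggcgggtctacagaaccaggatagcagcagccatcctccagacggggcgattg
Ifitm3: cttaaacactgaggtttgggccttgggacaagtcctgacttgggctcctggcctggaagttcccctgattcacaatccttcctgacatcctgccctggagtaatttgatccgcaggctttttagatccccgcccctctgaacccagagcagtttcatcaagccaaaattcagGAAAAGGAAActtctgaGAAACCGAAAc
Ifitm6: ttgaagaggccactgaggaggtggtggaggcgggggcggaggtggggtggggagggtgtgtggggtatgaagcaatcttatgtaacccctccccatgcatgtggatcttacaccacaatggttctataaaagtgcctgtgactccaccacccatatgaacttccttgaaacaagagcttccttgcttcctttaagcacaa

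The ISRE core was present once for Ifitm2, from 46 to 37 bases before the start, and at 2 places for Ifitm3, from base 3 to 12 and from base 20 to 29 after the start. The windows of Ifitm1 and Ifitm6 held no match. The core occurred in 3.44% of 32851 RefSeq promoter windows of the same build. A core of the GAS, written TTCNNNGAA, was found for Ifitm3 from base 14 to 22, overlapping the second ISRE core, and for Ifitm6 from 10 to 2 bases before the start, and it occurred in 8.30% of all windows. The search covered the whole RefSeq promoter window of each gene, and a match describes letters and not binding.

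The libraries came from C57BL/6J (WT) mice and from APPNL-G-F mice, in which a humanized amyloid-β sequence with the Swedish, Arctic and Iberian mutations has been knocked into the App gene. Each genotype had 1 library for each of 4 conditions. Control mice drank water, mice with acute colitis drank 2% DSS, a colon irritant, for 1 week, and mice with chronic colitis went through 3 cycles of 2% DSS followed by water, each for 5 days. The food allergy model is described only in the study's methods, as sensitization and feeding with ovalbumin. All mice were 16 weeks old by the labels. The brains were taken after perfusion with PBS, and CD45.2+ cells were marked with hashtag antibodies and sorted. The legends of the study give several mice for the control groups and the APPNL-G-F groups, and the labels do not state which mouse a hashtag marks. With 1 library per condition, differences between conditions have no replicate check, and a condition cannot be told apart from its library.

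Between 4876 and 7199 cells were kept per library, 50100 in all, with 25619162 to 54618574 UMIs per library and a median of 2778 to 4130 UMIs per cell. Cell types were assigned by requiring UMIs of at least 3 markers of a type, which placed 41437 cells. A further 8663 cells stayed without a type, and 1483 barcodes were found as a cell in more than 1 library. The gated cells were mostly lymphocytes and myeloid cells. Microglia numbered 106 and endothelial cells 11, fibroblasts, which a CD45 sort should leave out, 235, and no cell passed the neuron gate. Immunoglobulin variable genes, not the markers of the gate, led the plasma cells. Empty droplets held 50.7 to 687.9 CPM of Ifitm1, where CPM is the count of a gene scaled to 1000000 UMIs of its cells. They held 294.0 to 1087.8 CPM of Ifitm2, 429.3 to 1130.3 of Ifitm3 and 90.2 to 1891.7 of Ifitm6. Neutrophil granule genes in lymphoid cells put the share of free RNA in cells at 0.229% to 3.07%. This name is used here for the summed list of S100a8, S100a9, Ngp, Camp, Lcn2 and Ltf.

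Levels were taken as the UMIs of a gene over all UMIs of a cell type and library, in CPM. The values of 1 gene are compared across cell types, and no level is compared between genes, since the 5′ counts are not scaled to length. In total, 21 cell types had at least 20 cells in at least 4 libraries and were ordered by their mean log2(CPM + 1). Each order was led by a myeloid cell type, and NK cells, ILC2 and mature B cells stood in its lower part for all 4 genes, but the order of the cell types differed between the genes.

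**Figure D1:**
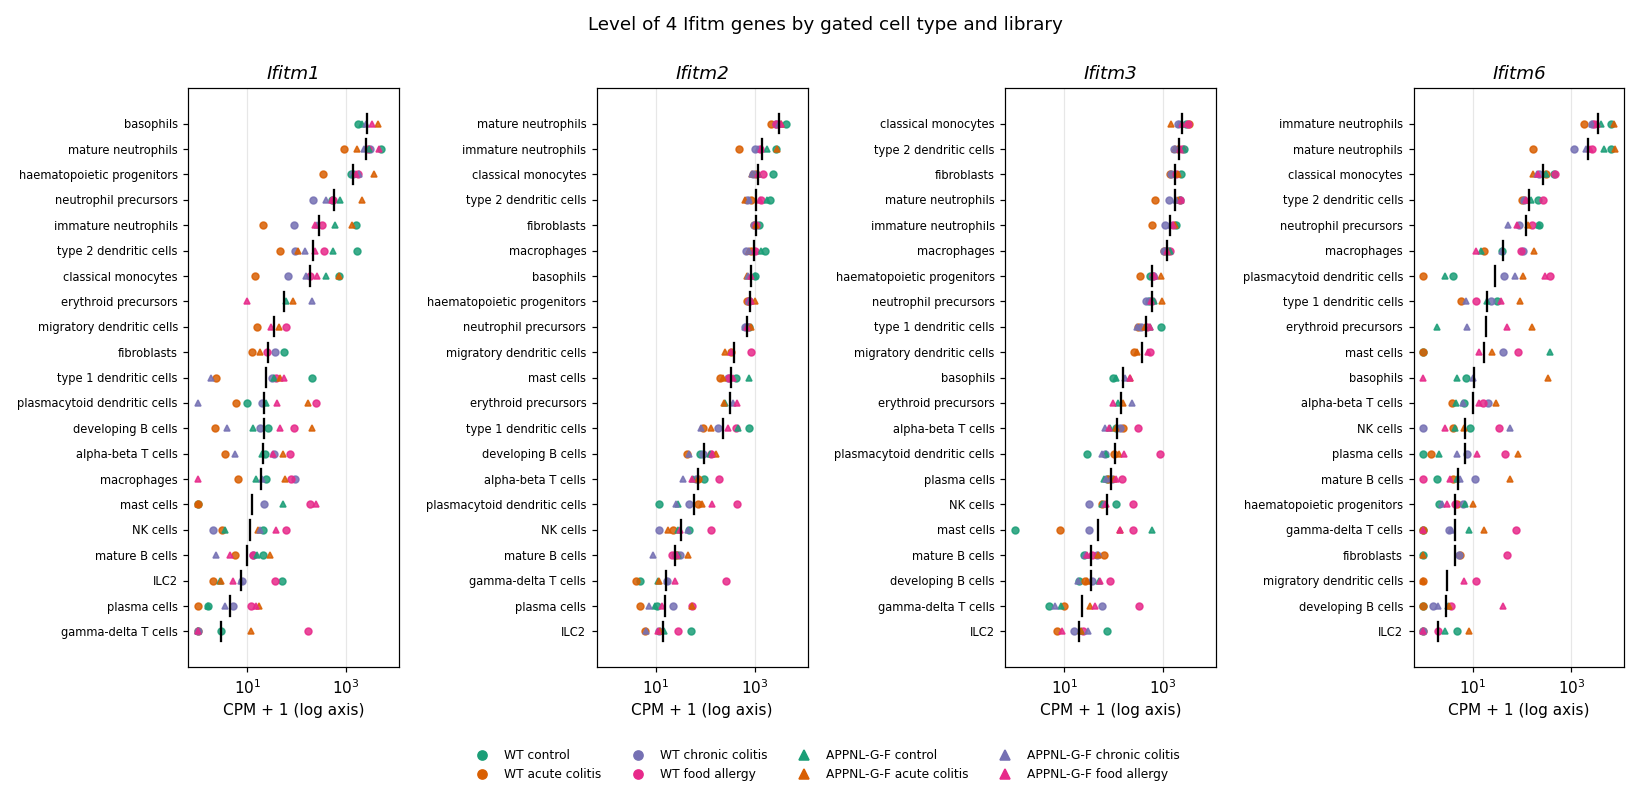
CPM + 1 on a log axis for Ifitm1, Ifitm2, Ifitm3 and Ifitm6 in 21 gated cell types. Each point is 1 library and the black bar is the mean on the log scale. Ifitm1 led in basophils and mature neutrophils, Ifitm2 in mature neutrophils, Ifitm3 in classical monocytes and Ifitm6 in immature neutrophils.

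Ifitm1 was highest in basophils and mature neutrophils. In basophils it was at 1743 CPM in WT control and at 2068, 3368, 2575 and 4359 CPM in the APPNL-G-F libraries of control, food allergy, chronic colitis and acute colitis. These 5 libraries all had UMIs of the gene in at least 82.0% of their basophils. In mature neutrophils the lowest, median and highest of the 8 libraries were 896, 2814 and 5130 CPM, and basophils were the higher of both in 2 of 5 shared libraries. Haematopoietic progenitors followed with 330, 1508 and 3679 CPM, and a median of 86.0% of them held a UMI of the gene. Neutrophil precursors had 210, 510 and 2068 CPM over 7 libraries.

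The next 3 cell types in the order of Ifitm1 had wide ranges. Immature neutrophils ran from 19.3 over a median of 291 to 1557 CPM, type 2 dendritic cells from 43.8 over 189 to 1619 CPM and classical monocytes from 13.4 over 225 to 729 CPM. The lowest value of each was in WT acute colitis, as were those of mature neutrophils and progenitors. Erythroid precursors, migratory dendritic cells, fibroblasts and type 1 dendritic cells stood between 0.789 and 205 CPM. Macrophages were low, with 0, 21.0 and 90.4 CPM, and a median of 2.79% of them held a UMI, against 1.05% of alpha-beta T cells at a similar depth of 2885 and 2989 UMIs per cell.

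Ifitm2 was highest in mature neutrophils, with 2129, 3274 and 4340 CPM. Immature neutrophils had 478, 1318 and 2894 CPM, classical monocytes 869, 1119 and 2343 CPM and type 2 dendritic cells 633, 1059 and 2045 CPM. Fibroblasts, macrophages, basophils, progenitors and neutrophil precursors followed with means of 1065, 1011, 860, 801 and 722 CPM. The spread over libraries was small in the last of these, with an SD of 76.8 CPM (n = 7). Unlike for Ifitm1, macrophages were in the upper part of the order, and a median of 77.4% of them held a UMI of Ifitm2. ILC2 and plasma cells were lowest, with means of 16.8 and 21.0 CPM.

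Ifitm3 was highest in classical monocytes, with 1481, 2370 and 3358 CPM, and a median of 97.6% of them held a UMI. Type 2 dendritic cells had 1687, 2127 and 2693 CPM and fibroblasts 1407, 1832 and 2291 CPM over 5 libraries. Mature and immature neutrophils had means of 1866 ± 578 and 1474 ± 426 CPM (SD, n = 8). Macrophages held an even level of 1210 ± 121 CPM (SD, n = 8). Basophils, which led the order of Ifitm1, had 161 ± 55.1 CPM (SD, n = 5). The rarer nonclassical monocytes had 20 cells in only 1 library, where they stood at 3716 CPM, and 3729 CPM over all 119 cells, with a counting interval of 3558 to 3907. Microglia had 689 CPM over 106 cells, with an interval of 618 to 766. Intervals cover counting error only.

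Ifitm6 was the most restricted of the 4 genes. Immature neutrophils had 1781, 3089 and 7390 CPM, and mature neutrophils 165, 2500 and 7566 CPM. Among the ordered cell types, classical monocytes came next with 170, 264 and 469 CPM. Type 2 dendritic cells had 99.5, 118 and 272 CPM and neutrophil precursors 50.3, 129 and 223 CPM. Nonclassical monocytes, too rare for the order, had 618 CPM over all 119 cells, with a counting interval of 549 to 692. Classical monocytes had 285 CPM over all cells. The gene gave 1.10 to 9.25 CPM in haematopoietic progenitors. Immature and mature neutrophils together took 66.9% and 22.7% of the gated UMIs of Ifitm6, while classical monocytes took 38.7% of those of Ifitm3. A median of 96.8% of immature neutrophils held a UMI of Ifitm6, or 85.4% after each cell was thinned to 1000 UMIs. The same shares in alpha-beta T cells, which should lack the gene, were 1.14% and 0.530%, at medians of 5506 and 2989 UMIs per cell.

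No pair of neighbours in these orders passed the adjusted test. Of 80 neighbouring pairs, 8 had an unadjusted p below 0.05 in the exact two-sided sign-flip permutation test over libraries, and 0 passed after adjustment over all pairs, with a smallest adjusted p of 0.156. The smallest p that 8 libraries allow is 0.00781, and 4 pairs reached it. Over 80 pairs this p passes the adjustment only where many pairs reach it together, and pairs with fewer libraries cannot reach it. Neighbours are also the pairs closest in mean level, so the lack of a pass does not decide whether the orders hold. Ifitm2 was higher in mature than in immature neutrophils in 8 of 8 libraries, by 1.16 ± 0.58 on the log2 scale (SD). Ifitm3 was higher in mature than in immature neutrophils in 8 of 8, by 0.32 ± 0.11. Ifitm3 was also higher in macrophages than in progenitors in 8 of 8, by 0.98 ± 0.39, and Ifitm6 in classical monocytes than in type 2 dendritic cells in 8 of 8, by 0.96 ± 0.31.

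Over the 21 cell types, the mean log2(CPM + 1) of Ifitm2 and Ifitm3 had a Pearson r of 0.87, and that of Ifitm1 and Ifitm6 one of 0.57. These coefficients describe 21 cell types that share libraries and differ in UMIs per cell. Among 7443 genes that reached 50 CPM in a cell type, the pattern of Ifitm1 was most like those of Nfe2 (r = 0.85), a transcription factor of the megakaryocyte and erythroid lineage, Tkt (0.83), transketolase, Dach1 (0.82) and Dgkg (0.80). Ifitm2 was most like Ltbr (0.89), the lymphotoxin receptor, Rab31 (0.87), Ier3 (0.84), Wdfy3 (0.83) and Dstn (0.82). For Ifitm3 the nearest genes were Tgfbi (0.91), Ltbr (0.91), App (0.90), the gene of the amyloid precursor protein, Rin2 (0.87) and B4galt6 (0.87). Ifitm6 was nearest to 6430548M08Rik (0.96), Il1r2 (0.94), the decoy receptor of interleukin-1, Lrg1 (0.93), Clec5a (0.92) and Mmp8 (0.92), the neutrophil collagenase. Il1r2 and Mmp8 are markers of the neutrophil gates.

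Differences between cell types were tested with edgeR's quasi-likelihood test on UMIs summed per cell type and library, with the library as a block. A gene was called at a Benjamini-Hochberg adjusted p below 0.05 over 14766 genes and at least a 2-fold difference, and values are log2 fold changes ± SE. The interferon-stimulated list had 40 genes, of which 38 were in the feature tables.

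Along the neutrophil lineage, Ifitm6, Ifitm2 and Ifitm3 rose from precursors to immature neutrophils, and Ifitm1 rose from immature to mature neutrophils. In immature neutrophils against neutrophil precursors, 3 of 4 members were called, beside 45.1% of all genes. Ifitm6 rose by 5.86 ± 0.78 (adjusted p = 2.94e-11, higher in 7 of 7 shared libraries), Ifitm3 by 2.25 ± 0.41 (adjusted p = 8.16e-07) and Ifitm2 by 2.10 ± 0.40 (adjusted p = 2.03e-06). Ifitm1 had 0.55 ± 0.59 (adjusted p = 0.425). These sizes depended on the scaling: without TMM factors the median of all genes moved from 0.00 to −0.81 and the changes were 4.95 for Ifitm6, 1.29 for Ifitm3, 1.13 for Ifitm2 and −0.41 for Ifitm1, with 49.9% of all calls higher under TMM and 19.7% without.

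In mature against immature neutrophils, 1 of 4 members was called, beside 4.14% of all genes. Ifitm1 rose by 2.77 ± 0.61 (adjusted p = 0.000430). Ifitm2 had 0.90 ± 0.37 (adjusted p = 0.0981) and was called under DESeq2 at 1.11, without TMM factors at 1.08, without the APPNL-G-F acute colitis library at 1.11 and in a fit of these 2 cell types alone at 1.18. Ifitm3 had 0.23 ± 0.38 and Ifitm6 −0.45 ± 0.60. Of all calls, 60.6% were higher in mature cells, and 73.4% under DESeq2.

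Neutrophils and monocytes differed in Ifitm1, Ifitm6 and Ifitm2 but not past the threshold in Ifitm3. In mature neutrophils against classical monocytes, 3 of 4 members were called, beside 38.6% of all genes. Ifitm1 was higher by 4.41 ± 0.65 (adjusted p = 1.95e-09), Ifitm6 by 3.85 ± 0.68 (adjusted p = 3.05e-07) and Ifitm2 by 2.14 ± 0.38 (adjusted p = 5.61e-07), each in 8 of 8 libraries except Ifitm6 in 7 of 8. Ifitm3 had 0.33 ± 0.38 and turned to −0.46 without TMM factors, where the median of all genes moved from −0.26 to −0.96. The share of calls that were higher in neutrophils was 38.7%, and 15.5% without TMM factors.

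Classical monocytes stood above macrophages in Ifitm1, Ifitm6 and Ifitm3, with 3 of 4 members called beside 27.8% of all genes. Ifitm1 was higher by 3.04 ± 0.66 (adjusted p = 4.39e-05), Ifitm6 by 2.95 ± 0.67 (adjusted p = 8.88e-05) and Ifitm3 by 1.20 ± 0.38 (adjusted p = 0.00564). Ifitm2 had 0.43 ± 0.37. The call of Ifitm3 was lost under DESeq2 (0.89), without the WT control library (0.96) and in a fit of these 2 cell types alone (0.95). Of all calls, 38.6% were higher in monocytes, and 23.6% under DESeq2.

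Classical monocytes and type 2 dendritic cells did not differ past the threshold in any of the 4 genes. Beside 16.0% of all genes, 0 of 4 members were called by edgeR and 0 by DESeq2, and 0 had an unadjusted p below 0.05 in these fits. The values were −0.44 ± 0.57 for Ifitm1, 0.09 ± 0.37 for Ifitm2, 0.21 ± 0.38 for Ifitm3 and 1.10 ± 0.61 for Ifitm6. Paired within libraries, Ifitm6 was higher in classical monocytes in 8 of 8, by 0.96 ± 0.31 (SD), with an adjusted p of 0.156 in the sign-flip test. Against nonclassical monocytes, which had 1 summed library, 10.1% of all genes and 0 of 4 members were called by edgeR, 0 by DESeq2, and 0 had an unadjusted p below 0.05. The lone library is assumed to vary like the other sums. Ifitm1 had 2.33 ± 1.86, Ifitm6 −1.20 ± 1.26, Ifitm3 −0.64 ± 0.78 and Ifitm2 −0.34 ± 0.79, and the share of calls higher in classical monocytes went from 72.1% to 14.6% under DESeq2.

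Basophils and mast cells, both IgE-armed granulocytes, differed most in Ifitm1. In basophils against mast cells, 2 of 4 members were called, beside 20.4% of all genes. Ifitm1 was higher by 5.44 ± 0.81 (adjusted p = 8.92e-09) and Ifitm2 by 1.38 ± 0.45 (adjusted p = 0.0108). The 2 cell types shared 4 libraries. With only the barcodes above the order-of-magnitude cutoff both calls were lost, at 10.68 ± 5.33 (adjusted p = 0.197) for Ifitm1 and 1.16 ± 1.06 for Ifitm2. Ifitm3 had 0.22 ± 0.48 and Ifitm6 −1.22 ± 0.89, and the share of calls higher in basophils was 53.7%, or 37.1% under DESeq2.

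In the lymphocyte contrasts 1 of 4 members was called, Ifitm2 in both. It was lower in NK cells than in alpha-beta T cells by −1.18 ± 0.39 (adjusted p = 0.0214), beside 10.3% of all genes, and lower in mature than in developing B cells by −1.75 ± 0.39 (adjusted p = 8.23e-05), beside 23.0% of all genes. Mean levels were 40.5 and 79.6 CPM in NK and T cells and 25.6 and 101.3 CPM in mature and developing B cells. The library medians were 28.5, 67.0, 26.2 and 104.8 CPM in the same order. Over hashtag groups of at least 20 cells, which hold cells with 1 hashtag, the medians were 6.99, 17.9, 8.47 and 67.0 CPM. Cells with several hashtags made up 5.97% of NK and 10.7% of T cells, and their part in these levels was not tested. The NK cell call was lost in 8 alternative settings, with adjusted p from 0.0508 to 0.105 and values from −1.20 to −0.96. The other 3 members had adjusted p values from 0.133 to 0.792 in these contrasts.

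**Figure D2:**
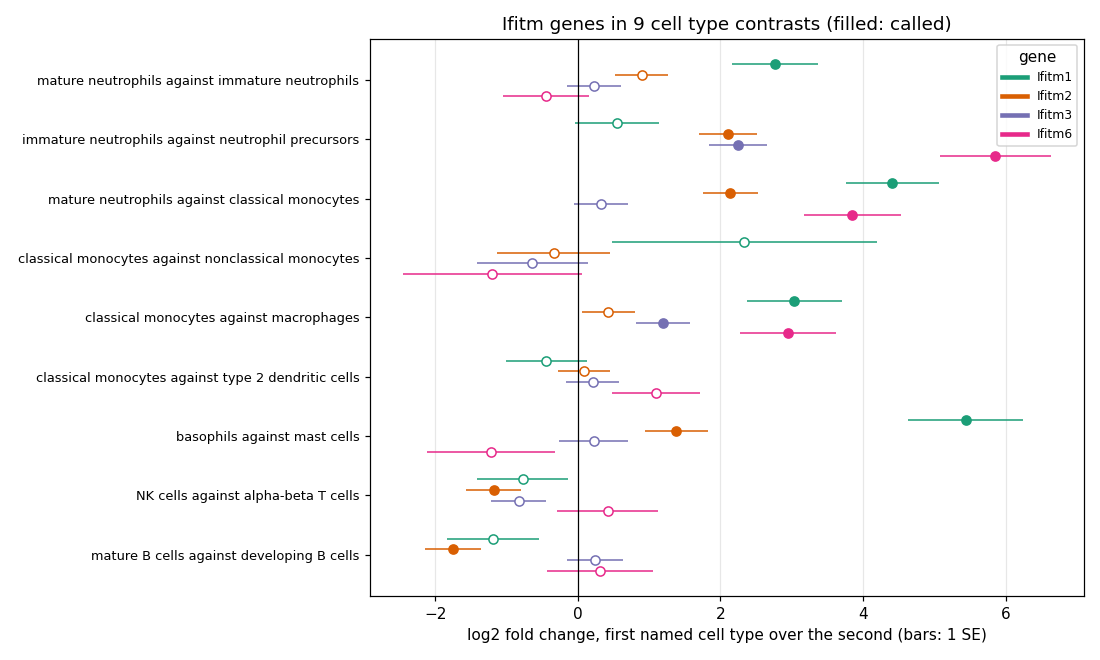
Log2 fold change of each Ifitm gene in 9 cell type contrasts, the first named cell type over the second, with bars of 1 SE and filled points for called genes. Ifitm6 had the largest value, 5.86 in immature neutrophils against neutrophil precursors, followed by Ifitm1 with 5.44 in basophils against mast cells.

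The interferon pathway was read in the same fits. From neutrophil precursors to immature neutrophils, 31 of 38 interferon-stimulated genes rose and 1 fell, beside 45.1% of all genes called in either direction. The median of the list was 2.02 against 0.00 over all genes. Without TMM factors the median of all genes was −0.81, and the list was not counted in that setting. The largest rises were in Oas3 (5.74), Rsad2 (5.23), Oas2 (4.53), Irf7 (4.38), Ifit3b (4.34), Rtp4 (3.81), Ddx58 (3.74), Ifit3 (3.68), Oasl2 (3.62) and Ifit1 (3.49), which code for sensors of viral RNA, antiviral effectors and a transcription factor of the pathway. Of the receptors, Ifnlr1, of interferon lambda, rose by 5.56 and Il10rb, its partner chain, by 1.07, and the other 4 stayed under the 2-fold limit, as did the kinases Jak2 (0.92) and Tyk2 (−0.57). The kinase Jak1 rose by 1.72 and the ligand Ifng by 1.83, while Ifnb1, Ifnl2 and Ifnl3 were too sparse to be tested. Ifitm10 rose by 4.05.

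From immature to mature neutrophils, 7 of 38 rose and 0 fell, beside 4.14% of all genes called. Among those that rose were Oasl1 (2.38), Oasl2 (2.17), Rtp4 (2.02) and Isg15 (1.57). Of the receptors, Il10rb (0.76) and Ifngr1 (0.64) passed the adjusted p of edgeR but not the 2-fold limit. Against classical monocytes, where 38.6% of all genes were called, mature neutrophils had 11 of 38 higher, led by Rsad2 (3.08) and Oas3 (3.01), and 7 lower, led by Slfn5 (−2.06) and Bst2 (−1.83).

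Monocytes had higher Ifitm1, Ifitm3 and Ifitm6 than macrophages, and most called genes of the interferon list went the other way. Of 38 genes, 19 were lower and 1 was higher in monocytes, beside 27.8% of all genes called. The median of the list was −0.97 against −0.04 over all genes. The lowest were Iigp1 (−4.34), Ifi44 (−3.24), Oas2 (−2.63) and Ifit3b (−2.52). Against type 2 dendritic cells, 14 were lower and 2 higher in monocytes, beside 16.0% of all genes called. Against nonclassical monocytes 1 was higher and 0 lower, beside 10.1%. Basophils had 2 higher and 6 lower than mast cells, led by Isg15 (−2.93), a share near the 20.4% of all genes called there. NK cells had 1 higher and 11 lower than T cells, led by Ifi27l2a (−3.84), where 10.3% of all genes were called. In mature against developing B cells, where 23.0% of all genes were called, 23 of 38 rose and 1 fell. Phf11b (3.44) and Slfn5 (3.10) were in front, while Ifitm2 fell. Ifitm10, at 188.9 CPM in NK cells and 99.6 CPM in alpha-beta T cells over all libraries, was highest in the cell types where the 4 members were low.

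Conditions were compared within a cell type, each treated library against the control library of its genotype, and APPNL-G-F control against WT control. The 3 WT comparisons and the genotype comparison share the WT control library, and the APPNL-G-F comparisons share theirs. No test was run. A gene was called where its CPM differed at least 2-fold, the exact counting interval of the ratio did not hold 1 and both libraries together had at least 50 UMIs. The interval covers counting error of these libraries, not the conditions.

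In immature neutrophils, Ifitm1 was called in 7 of 7 comparisons, lower in 6 and higher in 1. It was at 1557 CPM in WT control, against 328 in food allergy, 88.4 in chronic colitis and 19.3 in acute colitis. In APPNL-G-F mice it was at 603 CPM in control, against 231 in food allergy, 254 in chronic colitis and 1297 in acute colitis. The WT treated libraries were thus all under their control, and of the APPNL-G-F libraries acute colitis alone was above it. The ratio was 0.0124 (0.00592 to 0.0228) in WT acute colitis and 2.15 (2.01 to 2.30) in APPNL-G-F acute colitis. In the APPNL-G-F acute colitis library, hashtag 7 was called at the minimum cutoff of 50 counts, with 3657 cells, and hashtag 6 had no cutoff. Hashtag group 7 held most of the neutrophils of that library. Without it the ratio was 1.53 (1.40 to 1.68) and was not called, an alternative chosen after the data had been seen. The 128 cells left were not only those of groups 4 and 5, which had 32 and 29 cells at 12.4 and 23.7 CPM, and nearly all UMIs left came from cells with several hashtags or none.

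The other members followed in part. In WT acute colitis, 4 of 4 members were lower, beside 16.3% of all genes called, with ratios of 0.175 for Ifitm2, 0.325 for Ifitm3 and 0.278 for Ifitm6. Ifitm1, Ifitm2 and Ifitm6 were lower in WT food allergy, beside 8.51%, and in WT chronic colitis, beside 14.9%. Ifitm6 stood at 6407 CPM in WT control, and the other WT libraries had 2916 CPM with food allergy, 2577 with chronic and 1781 with acute colitis. In APPNL-G-F acute colitis Ifitm1 was the 1 member called, beside 8.93%, while Ifitm6 had 7390 against 4018 CPM, a ratio of 1.84. Ifitm1 alone was lower in APPNL-G-F chronic colitis (ratio 0.421, beside 5.03% of genes), in APPNL-G-F food allergy (0.383, beside 2.22%) and in APPNL-G-F control against WT control (0.387, beside 6.84%).

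In mature neutrophils Ifitm6 moved most often. It had 6440 CPM in WT control, 2592 with food allergy, 1150 with chronic and 165 with acute colitis. In APPNL-G-F mice it had 4517 CPM in control, 2409 with food allergy, 1974 with chronic and 7566 with acute colitis. The WT acute colitis library had the lowest value of the 8, and all 4 members were lower there, beside 34.9% of all genes, with ratios of 0.0256 (0.0182 to 0.0350) for Ifitm6, 0.175 for Ifitm1, 0.299 for Ifitm3 and 0.491 for Ifitm2. Ifitm6 was the 1 member called in WT chronic colitis (ratio 0.179, beside 20.7% of genes), in food allergy of the same genotype (0.402, beside 6.97%) and APPNL-G-F chronic colitis (0.437, beside 15.3%). In APPNL-G-F acute colitis, where 8.74% of genes were called, 0 of 4 members were. The count was also 0 in APPNL-G-F food allergy, beside 7.55%, and between the controls, beside 6.21%. Without hashtag group 7, whose removal again left cells with several hashtags or none, the APPNL-G-F acute colitis library had 746 against 2840 CPM of Ifitm1 in 46 cells, a ratio of 0.263, which was called. The neutrophil granule genes were summed in hashtag groups of at least 20 cells. They were at 118782 and 126458 CPM in mature neutrophils of WT acute colitis and at 233647 and 243633 CPM in WT control. The cells of the mature gate thus differed between the 2 libraries in the summed RNA of this list. Group 7 of APPNL-G-F acute colitis had 396857 CPM of the granule genes in this gate. Over 15 groups of mature neutrophils, Ifitm6 had a Spearman coefficient of 0.72 with the granule genes and −0.71 with the interferon list. The part of the granule genes in the Ifitm6 levels and ratios was not tested.

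In classical monocytes, Ifitm1 was lower in 4 of 7 comparisons while Ifitm3 was called in 0 of 7. Ifitm1 was at 698 CPM in WT control, 188 with food allergy, 66.0 with chronic and 13.4 with acute colitis. The APPNL-G-F libraries had 386, 261, 154 and 729 CPM in the same order. Its ratio was 0.0192 (0.0107 to 0.0317) in WT acute colitis, where Ifitm1 and Ifitm2 were lower beside 8.38% of genes. Both were also lower in WT chronic colitis (0.0946 and 0.393, beside 12.9% of genes). Ifitm1 alone was lower in WT food allergy (0.269, beside 3.9%) and in APPNL-G-F chronic colitis (0.399, beside 2.36%). In APPNL-G-F acute colitis, where 4.81% of genes were called, Ifitm1 had a ratio of 1.89 (1.78 to 2.01) and 0 of 4 members were called. The ratio was 0.751 without hashtag group 7, with nearly all UMIs left in cells with several hashtags or none, since groups 4 and 5 were at 3.62 and 7.93 CPM. The same count of 0 was found in APPNL-G-F food allergy, beside 1.31% of genes, and between the controls, beside 6.71%. Ifitm3 stayed between 1481 and 3358 CPM.

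Type 2 dendritic cells had lower Ifitm1 in 7 of 7 comparisons. The level was 1619 CPM in WT control, 347 with food allergy, 89.1 with chronic and 43.8 with acute colitis. In APPNL-G-F mice it was 550, 235, 143 and 107 CPM in the same order. Both controls were above each treated library of their genotype in these library sums. Among hashtag groups of at least 20 cells, APPNL-G-F control had only groups 6 and 7, at 366 and 1309 CPM. Group 7 of APPNL-G-F acute colitis, at 464 CPM, lay between them, and groups 4 and 5 of APPNL-G-F food allergy had 319 and 314 CPM. WT control had 1969 and 2313 CPM in groups 6 and 7, above the groups of the treated WT libraries. In WT acute colitis Ifitm1 (ratio 0.0270), Ifitm2 (0.410) and Ifitm6 (0.477) were lower, beside 5.75% of genes. Ifitm1 and Ifitm2 were lower in chronic colitis of WT (beside 6.97%) and APPNL-G-F mice (beside 6.55%) and in APPNL-G-F acute colitis (beside 5.83%), where the ratio of Ifitm1 was 0.195. It was 0.0694 without hashtag group 7, with most UMIs left in cells with several hashtags or none. Ifitm1 alone was lower in WT food allergy (ratio 0.214, beside 4.93%), in APPNL-G-F food allergy (0.427, beside 4.39%) and between the controls (0.339, beside 4.52%). Ifitm3 was called in 0 of 7.

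**Figure D3:**
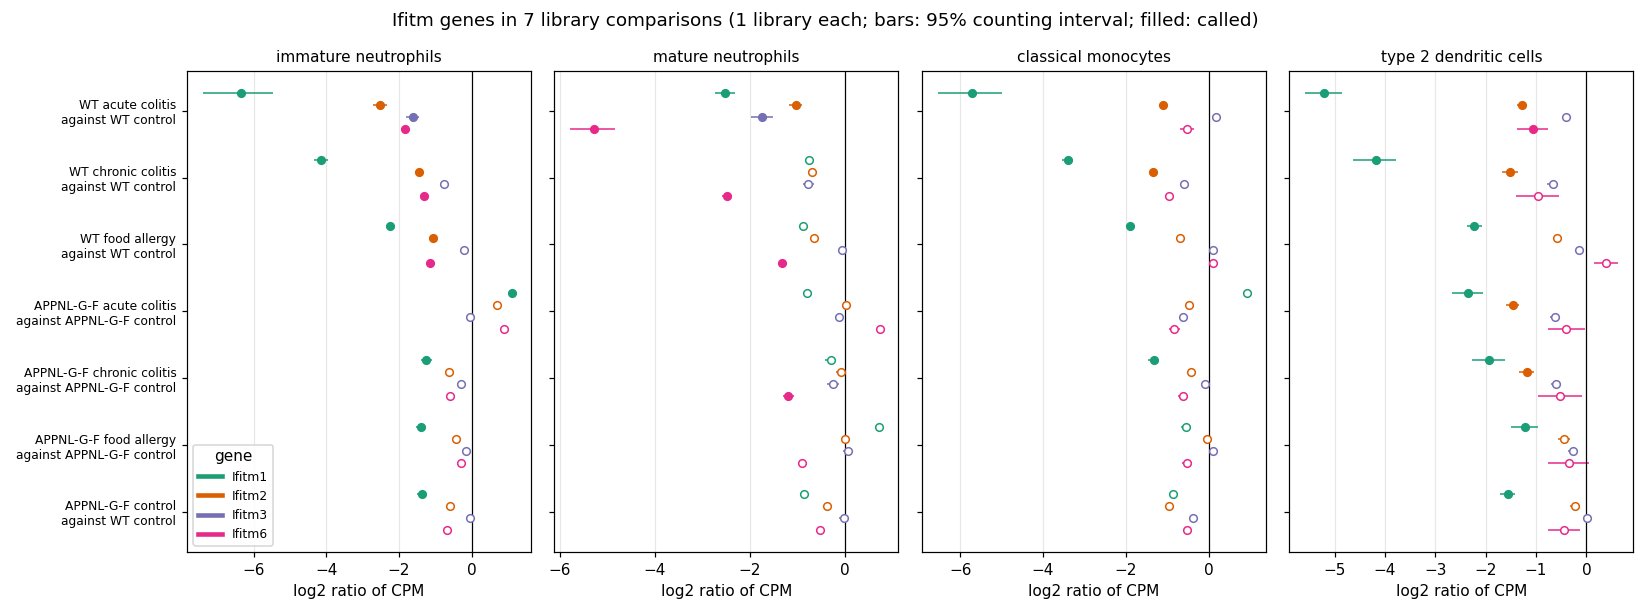
Log2 ratio of CPM for the 4 Ifitm genes in 7 library comparisons and 4 cell types, with bars of the 95% counting interval and filled points for called genes. Ifitm1 lay farthest to the left in WT acute colitis in immature neutrophils, monocytes and type 2 dendritic cells, with ratios of 0.0124, 0.0192 and 0.0270, and right of 0 in immature neutrophils and monocytes of APPNL-G-F acute colitis.

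The interferon list had calls in both directions where Ifitm1 was lower. In classical monocytes of WT acute colitis, where Ifitm1 was lowest, 17 of the 30 list genes with enough UMIs were higher and 0 lower. Of all genes, 8.38% were called there. The median log2 ratio of the list was 1.07, against −0.02 over all genes. Ifi27l2a had 1333 against 168 CPM and Irf7 208 against 72.4. In WT food allergy 12 of 35 were higher and 0 lower, beside 3.9% of all genes called. In WT chronic colitis 1 of 32 was higher and 10 were lower, beside 12.9%. In immature neutrophils 2 of 5 were higher in WT acute colitis, 3 of 15 in chronic colitis and 6 of 20 in food allergy. Of all genes, 16.3%, 14.9% and 8.51% were called there. APPNL-G-F chronic colitis had 3 of 19 higher, food allergy 0 of 19 and the genotype comparison 3 of 11, beside 5.03%, 2.22% and 6.84%. Type 2 dendritic cells had 6 of 28 higher and 0 lower in WT food allergy, beside 4.93%. They had 1 of 19 higher and 2 lower in APPNL-G-F chronic colitis, beside 6.55%. In immature neutrophils of APPNL-G-F acute colitis, where Ifitm1 was higher than in the control, 10 of 26 list genes were lower and 0 higher. That stood beside 8.93% of all genes called, and the median was −0.76 against −0.07 over all genes.

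The hashtags divided the libraries into 28 groups of cells. In classical monocytes the largest difference between groups of 1 library was 4.99-fold for Ifitm2, 4.08-fold for Ifitm3 and 6.51-fold for Ifitm6, and Ifitm1 differed more than these. In APPNL-G-F control Ifitm1 was at 2.39, 3.78, 474 and 892 CPM in groups 4, 5, 6 and 7, so that 2 groups had almost none of the gene and 2 had it in the range of the WT control groups 6 and 7 or below. In APPNL-G-F acute colitis the groups 4, 5 and 7 had 3.62, 7.93 and 885 CPM. In WT control the groups 5, 6 and 7 had 65.4, 953 and 740 CPM. WT acute colitis had 3.37 and 0 CPM in its 2 groups, and WT chronic colitis 61.5 and 37.8 CPM, below the control groups 6 and 7 but near its group 5. Over 23 groups, Ifitm1 ran from 0 to 953 CPM in monocytes, a range that the library explains only in part, with 60.6% of the variation of log2(CPM + 1) within libraries.

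The same groups stood high or low in other cell types. In immature neutrophils of APPNL-G-F control, Ifitm1 was at 33.9, 19.8, 277 and 1514 CPM in groups 4 to 7, and in APPNL-G-F acute colitis at 12.4, 23.7 and 1349 CPM in groups 4, 5 and 7. In type 2 dendritic cells of APPNL-G-F acute colitis it was at 11.9, 3.17 and 464 CPM in the same groups. Over the groups, the Spearman coefficient of Ifitm1 between immature neutrophils and monocytes was 0.91 (20 groups), between immature neutrophils and type 2 dendritic cells 0.91 (15 groups) and between monocytes and neutrophil precursors 0.95 (14 groups). It was 0.59 between immature and mature neutrophils (14 groups) and −0.24 between monocytes and macrophages (15 groups), where the gene was near the level of lymphocytes. The groups of a library share its capture and sequencing, and these coefficients are descriptions. UMIs per cell differed between groups of a library. In monocytes of APPNL-G-F acute colitis, group 7 had 2655657 UMIs in 123 cells. Groups 4 and 5, low in Ifitm1, had 275960 in 39 cells and 252087 in 40. WT control went the other way, with 657458 UMIs in 39 cells of its low group 5 and 1667373 in 193 cells of group 6. The part of this in the Ifitm1 levels was not tested.

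**Figure D4:**
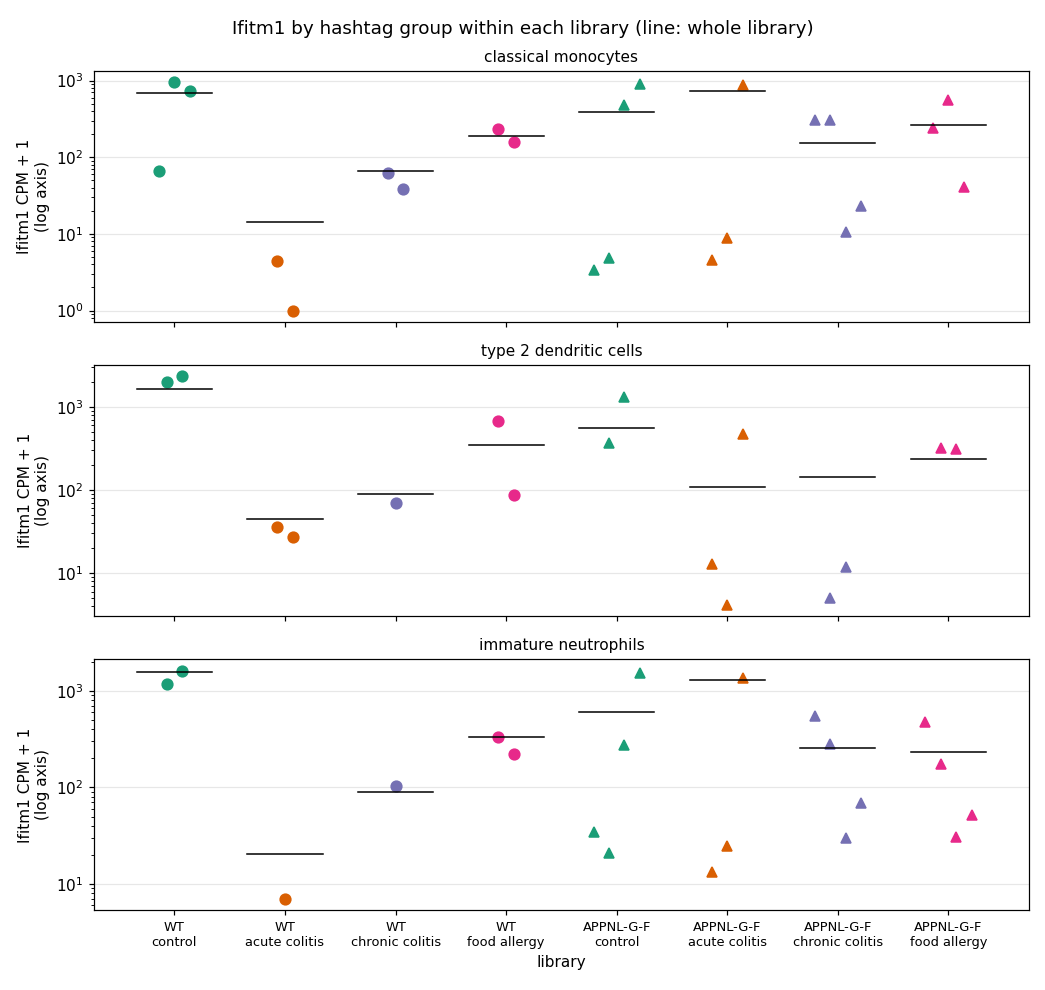
Ifitm1 CPM + 1 on a log axis in classical monocytes, type 2 dendritic cells and immature neutrophils. Each point is a hashtag group of at least 20 cells and the line is the whole library. In APPNL-G-F control and acute colitis the groups of 1 library lay apart, from 2.39 to 892 CPM in monocytes of the control.

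Neutrophil granule genes were higher in monocyte groups with more Ifitm1, which was not so in type 2 dendritic cells. The summed CPM of the neutrophil granule genes in monocytes had a Spearman coefficient of 0.74 with Ifitm1 (23 groups), and was 181 and 185 CPM in the low groups of APPNL-G-F control and 4292 and 7863 CPM in the high groups. Immature neutrophils held 308567 to 435326 CPM of the granule genes. In type 2 dendritic cells the coefficient was −0.31 (16 groups), and the groups 6 and 7 of WT control, with 1969 and 2313 CPM of Ifitm1, had 11.0 and 8.40 CPM of the granule genes. After subtraction of the profile of empty droplets, Ifitm1 had 4 lower calls in monocytes and 7 in type 2 dendritic cells. Admixture of neutrophils as cells was not tested.

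In immature neutrophils the 4 members moved together over the hashtag groups. Ifitm6 ran from 1834 to 7761 CPM over 21 groups and Ifitm2 from 348 to 3054 CPM. The Spearman coefficient with Ifitm1 was 0.94 for Ifitm2, 0.84 for Ifitm3 and 0.91 for Ifitm6. The granule genes had −0.01 with Ifitm1 over the same groups, and the interferon list −0.41. In mature neutrophils the coefficients with Ifitm1 were 0.92, 0.81 and 0.65 for Ifitm2, Ifitm3 and Ifitm6 (15 groups).

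In monocytes Ifitm1 stood apart from the other members. The coefficient was 0.74 for Ifitm2 and Ifitm3, 0.72 for Ifitm2 and Ifitm6 and 0.79 for Ifitm3 and Ifitm6, against 0.50 for Ifitm1 and Ifitm2 and 0.10 for Ifitm1 and Ifitm6. Ifitm3 had a coefficient of 0.67 with the interferon list and −0.13 with Ifitm1 (23 groups), and Ifitm1 had −0.50 with the list. Group 7 of APPNL-G-F acute colitis had 885 CPM of Ifitm1, 1007 of Ifitm3 and 2530 of the summed interferon list, while groups 4 and 5 of the same library had 3.62 and 7.93 CPM of Ifitm1, 4106 and 3769 of Ifitm3 and 7421 and 5720 of the list. High Ifitm1 and low Ifitm3 thus stood in the same group of that library, and the reverse in its other groups. In APPNL-G-F control, Ifitm3 was at 1623 and 1933 CPM in the groups low in Ifitm1 and at 3023 and 2559 CPM in the groups high in it, so the opposition did not hold in every library. The immediate-early genes of alpha-beta T cells, which differed between hashtag groups, had coefficients of 0.10 with Ifitm1, 0.68 with Ifitm2, 0.72 with Ifitm3 and 0.84 with Ifitm6 in monocytes. Their part in these levels was not tested.

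**Figure D5:**
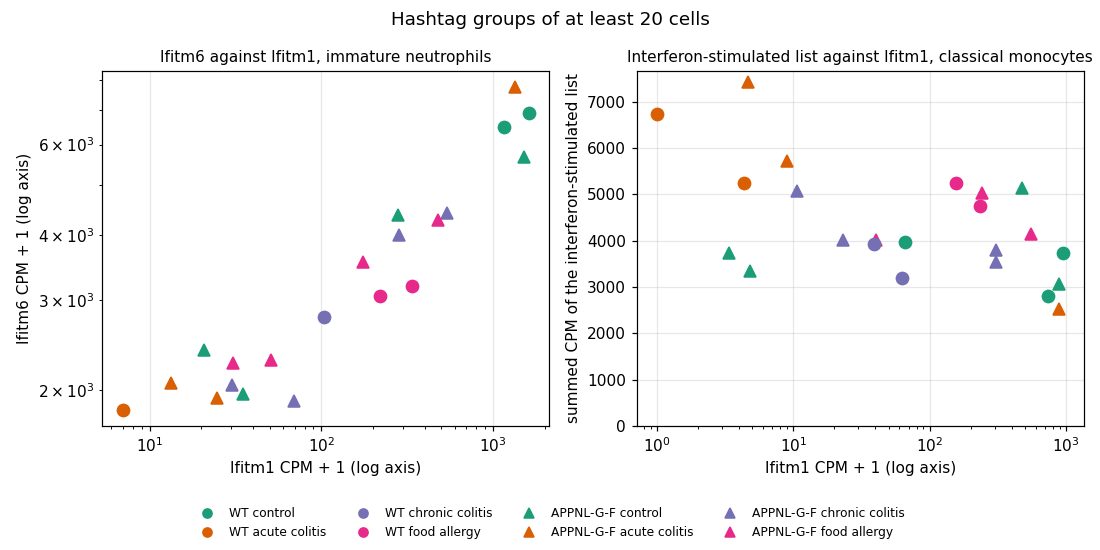
Hashtag groups of at least 20 cells. Left, CPM + 1 of Ifitm6 against Ifitm1 in immature neutrophils, both on log axes, where the groups rise together (21 groups). Right, summed CPM of the interferon-stimulated list on a linear axis against Ifitm1 CPM + 1 on a log axis in classical monocytes, where the 3 highest list values, from 5720 to 7421 CPM, belong to acute colitis groups at 0 to 7.93 CPM of Ifitm1.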

How the data were processed

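CD45.2+ cells of mouse brain were sequenced as 8 hashtagged 10x Genomics 5′ v2 libraries. The deposited values are UMI counts per gene and barcode, which the authors made with Cell Ranger 6.1.2 on mm10 according to the submitters' processing notes, while the matrix headers name Cell Ranger 4. They were not normalized or filtered for cells. V(D)J data were not analysed here.

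Cells were called anew. Barcodes above an order-of-magnitude cutoff for 3000 expected cells were kept, and the rest, from 500 UMIs upwards, were compared with the profile of barcodes ranked 45000 to 90000 in 1000 simulations (false discovery rate 1%). Kept cells had 200 genes or more and at most 5% mitochondrial UMIs. A cell type needed 3 markers. No doublet caller was run, and cells with several hashtags (4649) or none (1597) stayed in the library sums. A hashtag was called above the valley of its counts and at least 50 counts. No cutoff was found, and no cell assigned, for hashtag 7 of WT acute colitis and hashtag 4 of WT chronic colitis. The same held for hashtag 6 of WT food allergy and of APPNL-G-F acute colitis.

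Sums of at least 20 cells were fitted over all cell types with edgeR 4.0.16 (glmQLFit, TMM, library as a block) in R 4.3.3 with limma 3.58.1, and with DESeq2 1.42.0 as an alternative, on 14766 genes. The scripts were tested on simulated data. Python 3.11.15, NumPy 2.4.6, pandas 2.3.3, SciPy 1.17.1 and Matplotlib 3.10.9 were used elsewhere. The labels tie no library to single mice, while the legends of the study give several mice for most groups, so p-values measure the spread between these libraries. The exact intervals cover counting error only, at 95%. Mx1 and Mx2 were not in the feature tables, which leaves 38 of 40 list genes.

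The members, lists and markers were chosen with earlier results of these data known. Named genes were the 4 members, the rest of their family, called genes of the interferon lists (at most 10 per contrast, by size) and the 5 genes most like each member over cell types. Some genes that this rule names are not reported here. Alternatives changed cell calling, gates, hashtags, the mitochondrial limit, ambient RNA, scaling, filters, the block and the libraries used.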

Additional observations from a re-analysis of the deposited data

Results flagged for a closer look

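In immature neutrophils, the library sums of Ifitm1 in acute colitis lay above the control in APPNL-G-F mice and below it in WT mice. The log2 ratio to the control of the same genotype was 1.10 in APPNL-G-F mice and −6.34 in WT mice, a difference of 7.44. Each side rests on 1 library, and the difference was not tested. WT acute colitis had 1 hashtag group of at least 20 immature neutrophils, at 5.98 CPM, and the 3 groups of APPNL-G-F acute colitis had 12.4, 23.7 and 1349 CPM. The groups of APPNL-G-F control had 33.9, 19.8, 277 and 1514 CPM, so the 2 sets overlapped. The higher call in APPNL-G-F mice was lost when hashtag groups were averaged and above the order-of-magnitude cutoff.

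The cells that passed no gate entered no comparison but held UMIs of all 4 members. They carried 18.2% of the UMIs of Ifitm1 in kept cells, 17.96% of those of Ifitm2, 12.99% of those of Ifitm3 and 30.1% of those of Ifitm6. Their levels ran from 24.3 to 1234 CPM for Ifitm1, 131 to 2026 for Ifitm2, 235 to 1378 for Ifitm3 and 51.1 to 4813 for Ifitm6 over the 8 libraries. The leading genes of these cells were Ttr, Enpp2, Clu and Ptgds, known from choroid plexus and other non-immune brain cells, Ighv12-3 and Vpreb3 of the B lineage, and Asprv1, Lrg1, Ifitm6 and Lcn2, known from neutrophils.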

How the results depend on the processing

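Of the alternatives for the log2 fold changes of the members, 628 kept direction and side of the threshold, 16 reversed, 11 gained and 15 lost the call. The cause of these shifts was not tested. Depth limits Ifitm1 and Ifitm6 in lymphocytes, where both are low, and in those rare cell types where they are near 0. With 1 library per condition no alternative replaces a replicate. No paired analysis of the conditions was possible because every group has replicate number 1 alone, and the condition comparisons come from no test. Cell types were paired within a library in the sign-flip test, and the cell type contrasts carry the library as a block. A fit of the pair alone could not be made for nonclassical monocytes, which have 1 sum.

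In mature against immature neutrophils, Ifitm2 was called with DESeq2 (1.11), without TMM (1.08), in the pair alone (1.18) and without the APPNL-G-F acute colitis library (1.11), over a range of 0.79 to 1.11 when a library was left out. Without TMM, Ifitm1 reversed to −0.41 in immature neutrophils against precursors and Ifitm3 to −0.46 in mature neutrophils against monocytes. Ifitm2 reversed to 0.27 in classical against nonclassical monocytes without the library block. Against type 2 dendritic cells it reversed to −0.032 with DESeq2 and to −0.022 without WT control, over −0.022 to 0.21. Ifitm3 in monocytes against macrophages lost its call with DESeq2 (0.89), in the pair alone (0.95) and without WT control (0.96), over 0.96 to 1.24.

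In basophils against mast cells, barcodes above the order-of-magnitude cutoff alone gave 10.68 for Ifitm1 and 1.16 for Ifitm2, both without a call, and 6.56 for Ifitm6. Ifitm2 had 0.93 in the pair alone. Ifitm3 was called in cells with 1 hashtag (2.84) and without APPNL-G-F control, over 0.033 to 1.38. Ifitm6 reversed to 3.74 in cells with 1 hashtag and to 1.19 without APPNL-G-F control, and was called at −4.10 without APPNL-G-F acute colitis.

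In NK against alpha-beta T cells, Ifitm2 lost its call without the block (−1.14), with 1 marker more (−0.96), in cells with 1 hashtag (−1.01) and without each of WT acute (−1.06) and chronic colitis (−1.03) and APPNL-G-F food allergy (−1.20), acute colitis (−1.06) and control (−1.16), over −1.41 to −1.03. Ifitm6 reversed in cells with 1 hashtag (−0.74), after ambient subtraction (−0.50) and without APPNL-G-F chronic colitis, over −1.0004 to 0.93.

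In mature against developing B cells, Ifitm1 was called after ambient subtraction (−1.73) and in the pair alone (−1.38). Above the order-of-magnitude cutoff Ifitm2 lost its call (−0.82) and Ifitm3 gained one (1.14). Ifitm3 reversed with 1 hashtag (−0.13), after ambient subtraction (−0.045) and without WT acute colitis, over −0.028 to 0.41. Ifitm6 reversed after ambient subtraction (−2.81) and without APPNL-G-F acute colitis (−0.25), and was called without APPNL-G-F food allergy (2.85).

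Of the genes called, those in mature against immature neutrophils went from 611 to 333 above the order-of-magnitude cutoff, 1007 with 1 hashtag and 327 in the pair alone. Classical against nonclassical monocytes went from 1486 to 615 with DESeq2 and 964 without a filter on low counts. In the pair alone the count went from 4108 to 2095 for monocytes against macrophages, 2356 to 1208 against type 2 dendritic cells, 3012 to 762 for basophils against mast cells (1653 above the order-of-magnitude cutoff), 1515 to 867 for NK cells and 3400 to 2261 for B cells.

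Call counts of the 7 library comparisons moved as follows. The mean over hashtag groups took Ifitm1 higher in immature neutrophils from 1 to 0, Ifitm2 lower in monocytes from 2 to 1, Ifitm3 lower in type 2 dendritic cells from 0 to 1 and Ifitm6 lower there from 1 to 3. The mean over cells gave 1 higher call each of Ifitm2 and Ifitm6 in immature and of Ifitm6 in mature neutrophils, from 0, and 2 lower calls of Ifitm1 in mature neutrophils, from 1. The order-of-magnitude cutoff gave 0 higher calls of Ifitm1 in immature and 3 lower calls of Ifitm1 and 2 of Ifitm2 in mature neutrophils. TMM factors gave 1 higher call of Ifitm6 in immature neutrophils and 0 lower in type 2 dendritic cells. Cells with 1 hashtag gave 1 higher call of Ifitm1 in mature neutrophils. Ambient subtraction gave Ifitm6 1 lower call in monocytes and 2 in type 2 dendritic cells, 1 marker fewer also gave 2 there, and 1 marker more gave 0, and 0 for Ifitm2 in mature neutrophils.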

Other observations

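The genes named here as most like Ifitm1 over hashtag groups differed between myeloid cell types, and were listed after the values had been seen. In classical monocytes, over 23 groups and 2426 genes, they were Wfdc21 (Pearson r = 0.899), Cd38 (0.888), an ectoenzyme that consumes NAD, Dmkn (0.887), Manf (0.881) and Hp (0.881), which codes for haptoglobin. In type 2 dendritic cells, over 16 groups and 2358 genes, they were Stat3 (0.927), a transcription factor of interleukin-6 signalling, Myd88 (0.918), the adaptor of Toll-like receptors, Bcl3 (0.903), Il4ra (0.902) and Ptpn1 (0.900). In immature neutrophils, over 21 groups and 1750 genes, they were Tspo (0.954), Alox5ap (0.952), an activating protein of leukotriene synthesis, Asprv1 (0.947), Lrg1 (0.940) and Prelid1 (0.929). Tspo (0.868) and Lrg1 (0.856) came further down among the nearest genes in classical monocytes, so the monocyte and neutrophil lists overlapped. Groups of a library share its capture and sequencing but differ in UMIs per cell, so these coefficients are descriptions without a test.

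Ifitm7, on chromosome 16, gave 133 UMIs in kept cells, of which neutrophil precursors held 63.1% and haematopoietic progenitors 24.6% of those in gated cells. Ifitm6 in mature and immature neutrophils of the same hashtag group had a Spearman coefficient of 0.98 over 14 groups, against 0.00 between immature neutrophils and classical monocytes over 20 groups.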
